A study of Mus musculus with 20 samples.

Results

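A pair of populations of mouse CD4 T cells that carried the same mark of T-bet expression were compared by RNA sequencing, and the members are the 4 libraries of these populations out of 20 libraries in the series. Both came from C57BL/6 mice that carry T-bet-Cre together with a Rosa26-loxP-STOP-loxP-tdTomato reporter, so that Cre recombinase made under control of the T-bet gene switches on the fluorescent protein tdTomato for good. Draining lymph nodes were taken on day 16 after immunization with AS15, a peptide of Toxoplasma gondii, in complete Freund's adjuvant, and cells specific for AS15 were sorted by tetramer staining. Follicular helper T cells (Tfh) were sorted as CXCR5-high PD1-high Tomato+ cells (2 libraries) and non-Tfh cells as CXCR5-low PD1-low Tomato+ cells (2 libraries). The same 2 gates among Tomato- cells gave 4 further libraries, which share the estimate of spread here. Tomato reports T-bet expression that is present or past, and the labels name no reporter of current T-bet in these cells. The age and sex of the mice, and how many were pooled, are not given in the sources used here. Nothing says that the 2 libraries of a group came from separate animals, so p-values measure the spread between these libraries, which may be technical.

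T-bet, encoded by Tbx21, directs T helper 1 (Th1) differentiation and the production of interferon gamma. Tfh cells depend instead on the repressor Bcl6, move into the B cell follicle through the chemokine receptor CXCR5, and help germinal centre B cells with interleukin 21, interleukin 4 and CD40 ligand. Effector cells that leave the node carry integrins, selectin ligands and inflammatory chemokine receptors, and Bcl6 and the Th1 program are known to restrain each other. The comparison therefore sets 2 differentiation states beside each other in cells that carry the same permanent mark. The mark does not show when, how long or how strongly T-bet was expressed.

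The 4 libraries held 16129788 to 19273496 reads over genes, and 11413 to 11806 genes had a read. Each value below is a level in RPKM (the reads of a transcript divided by its length and by the library's size), given for replicate 1 and then replicate 2, or a log2 fold change of Tfh over non-Tfh with its standard error (SE) from edgeR's quasi-likelihood test. The correlation of log2 counts, scaled by library size, between the 2 replicates, across genes, was 0.783 in Tfh cells and 0.807 in non-Tfh cells. Between a Tfh and a non-Tfh library it was 0.753 to 0.791, and that of Tfh replicate 2 with non-Tfh replicate 2 (0.791) was above that of the 2 Tfh replicates. Over the 8 lymph node libraries edgeR estimated a common biological coefficient of variation of 0.908, and 1306 tested genes had no read in 1 Tomato+ library and reads in its replicate. CD4 T cell genes were high in all 4 libraries, with Cd4 at 416.5 and 386.5 RPKM in Tfh and 394 and 346.5 RPKM in non-Tfh cells. In RNA from bulk cells, fewer cells that express a gene and less RNA per cell cannot be told apart.

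In all, 9 of 11746 tested genes passed an adjusted p of 0.05 between Tfh and non-Tfh cells; below, a gene passed if it did so in edgeR, unless another tool is named. Of all tested genes, 7 (0.0596%) were higher in Tfh cells and 2 (0.017%) were lower. At an unadjusted p below 0.05 there were 510 genes higher (4.34%) and 453 lower (3.86%). DESeq2 called 2.1% of tested genes higher and 1.42% lower. These shares are the background for the counts of each gene list below. The median log2 fold change of all tested genes was 0.00. With 2 libraries a group, both Tfh libraries lay above both non-Tfh libraries in 22.3% of all tested genes and below them in 17%, so this order alone sets no gene apart. The genes that rose in Tfh cells were the transcription factor genes Ascl2, Tox and Fos, the secreted antagonist gene Sostdc1, and Fam43a, Smtn and Rgs10. Those that fell were Itgb7 and Selplg, which both act in adhesion and homing of lymphocytes.

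Ascl2, a basic helix-loop-helix factor that promotes CXCR5 expression and early Tfh commitment, had the largest rise. It was at 38.6 and 51.9 RPKM in Tfh cells and at 0.160 and 0.370 RPKM in non-Tfh cells, where it had 6 and 16 reads. Both Tfh libraries were far above both non-Tfh libraries, and the log2 fold change was 7.29 ± 0.78 (adjusted p = 0.037, edgeR). Of the 9 genes, 6 were matched in the RefSeq promoter table used here, and the 250 bases before the start are shown for those at the extremes of the change, Ascl2 and Itgb7, and for Fos, which alone held a searched motif. All are from GRCm38.p6, 5′ to 3′ on the gene's strand, with capitals for motif matches. The window of Ascl2 is chr7:142969265-142969514 on the minus strand and holds none of the motifs searched.
Ascl2: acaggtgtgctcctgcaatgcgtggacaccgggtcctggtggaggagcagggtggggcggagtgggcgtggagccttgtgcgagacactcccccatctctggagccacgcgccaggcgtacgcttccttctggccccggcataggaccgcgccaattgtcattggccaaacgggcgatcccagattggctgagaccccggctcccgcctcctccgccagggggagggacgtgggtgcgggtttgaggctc

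Sostdc1 encodes a secreted antagonist of Wnt and bone morphogenetic protein signalling that Tfh cells are known to express. It was at 401.2 and 264.2 RPKM in Tfh cells against 35.0 and 27.7 RPKM in non-Tfh cells, with the smallest adjusted p of the 9 genes (log2 fold change 3.32 ± 0.29, adjusted p = 0.0294, edgeR). The groups lay well apart although the 2 Tfh libraries differed from each other. Tox, a high-mobility-group factor of Tfh and chronically stimulated T cells, was at 102.6 and 128.3 RPKM in Tfh against 29.5 and 18.8 RPKM in non-Tfh cells (2.17 ± 0.26, adjusted p = 0.0402, edgeR).

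Fam43a, a gene of little-known function, was at 112.2 and 98.4 RPKM in Tfh cells and at 9.60 and 13.9 RPKM in non-Tfh cells, a log2 fold change of 3.06 ± 0.34 (adjusted p = 0.037, edgeR). Smtn encodes smoothelin, a protein known from the cytoskeleton of smooth muscle, and was at 72.6 and 63.4 against 14.3 and 16.9 RPKM (2.03 ± 0.22). Rgs10, a regulator that shortens signalling through G proteins, was at 430.4 and 340.4 against 112.8 and 112.4 RPKM (1.68 ± 0.21, adjusted p = 0.049, edgeR). In each of these 3 genes both Tfh libraries were above both non-Tfh libraries.

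Fos, an immediate early gene whose product pairs with Jun proteins in AP-1, had the highest level of the 9 genes. It was at 1895 and 1612 RPKM in Tfh cells and at 730.1 and 733.7 RPKM in non-Tfh cells, a log2 fold change of 1.17 ± 0.13 (adjusted p = 0.037, edgeR). The windows of the 6 genes were searched on both strands for GGTGTGA (T-box), CAGCTG (E-box), TGANTCA (AP-1), TGACGT (the core of a cyclic AMP response element), CTTTGA (TCF and LEF factors) and TTCNNNGAA (BCL6 and STAT factors). Of 32851 promoter windows of the same length in the table, 3.33%, 13%, 6.75%, 6.47%, 13.8% and 7.02% hold these motifs, in that order. Only the window of Fos, at chr12:85473640-85473889 on the plus strand, held a match. Its TGACGT spans 66 to 61 bases before the start and its CAGCTG 22 to 17 bases before the start, and the 2 matches do not overlap. A match is a description of the letters and not of a bound site.
Fos: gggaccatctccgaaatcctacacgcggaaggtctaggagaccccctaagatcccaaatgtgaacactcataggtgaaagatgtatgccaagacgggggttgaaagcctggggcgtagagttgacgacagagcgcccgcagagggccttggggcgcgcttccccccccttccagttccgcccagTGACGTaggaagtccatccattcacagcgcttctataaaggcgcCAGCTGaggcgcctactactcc

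Itgb7 encodes the integrin beta 7 chain, which pairs with the alpha 4 chain for homing to gut and with the alpha E chain for binding to epithelium. It was at 229.3 and 211.2 RPKM in Tfh cells and at 599 and 532.9 RPKM in non-Tfh cells, a log2 fold change of -1.45 ± 0.16 (adjusted p = 0.037, edgeR). Its partner genes did not pass, with Itga4 between 1.81 and 5.89 RPKM in all 4 libraries, and Itgae at 0.874 and 2.90 against 14.95 and 16.7 RPKM. Selplg encodes PSGL-1, the P-selectin ligand, whose loss marks Tfh cells in immunized mice. It was at 211.9 and 220.5 against 491.9 and 487 RPKM (-1.27 ± 0.15, adjusted p = 0.0394, edgeR). Both genes were lower in both Tfh libraries than in either non-Tfh library. The window of Itgb7 is chr15:102231936-102232185 on the minus strand and holds none of the motifs.
Itgb7: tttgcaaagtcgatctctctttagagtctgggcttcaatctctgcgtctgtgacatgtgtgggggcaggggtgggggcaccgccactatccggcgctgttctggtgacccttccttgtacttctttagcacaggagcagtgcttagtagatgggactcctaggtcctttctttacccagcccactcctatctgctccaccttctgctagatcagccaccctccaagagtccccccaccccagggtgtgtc

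**Figure D1:**
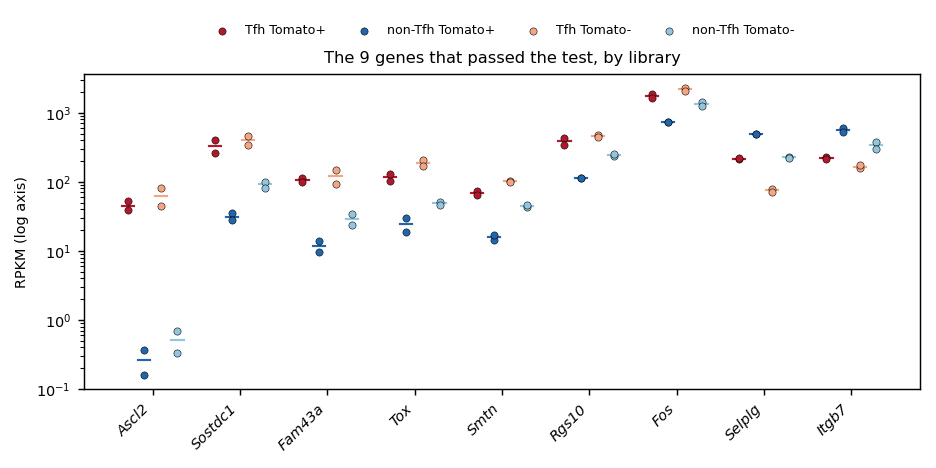
Level in RPKM (log axis) of the 9 genes that passed between Tomato+ Tfh and non-Tfh cells; each point is a library and each short line the mean of 2. Dark red points (Tfh Tomato+) and dark blue points (non-Tfh Tomato+) do not overlap for any of the 9, and the paler Tomato- points lie in the same order.

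The call of these genes rested on all 4 libraries. Without Tfh replicate 2 only Sostdc1 passed, and without Tfh replicate 1, non-Tfh replicate 1 or non-Tfh replicate 2 no gene passed in edgeR, with 571, 703 and 751 genes at an unadjusted p below 0.05. In these fits the lone library of a group is assumed to vary like the other groups. No gene passed with the 4 libraries fitted alone either (1115 at an unadjusted p below 0.05), a fit with fewer libraries to estimate the spread from. The Tomato- libraries numbered 2 had high neutrophil transcripts. A fit without both of them leaves 1 library in each Tomato- group and also has less to estimate the spread from. The part of the neutrophil transcripts in the calls was not tested. All 9 genes also passed in DESeq2, which called 2.1% of tested genes higher and 1.42% lower, and in limma. Over 20 alternative fits Sostdc1 passed in 14, Ascl2, Fam43a, Tox, Smtn, Fos and Itgb7 in 12, Selplg in 10 and Rgs10 in 8.

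Cxcr5 and Pdcd1 were set by the gate, and their levels check the sort. Cxcr5 was at 360.2 and 258 RPKM in Tfh cells and at 27.8 and 55.7 RPKM in non-Tfh cells, with a log2 fold change of 2.79 ± 0.37 that narrowly missed the threshold (adjusted p = 0.0522, edgeR). Pdcd1, which encodes PD1, was at 655.7 and 542.1 against 132.7 and 182.7 RPKM (1.83 ± 0.28, adjusted p = 0.076, edgeR). Both followed their gate in every library. Bcl6, the repressor that defines Tfh cells and was not part of the gate, was at 110.3 and 95.2 RPKM in Tfh against 23.7 and 21.9 RPKM in non-Tfh cells. Its log2 fold change of 2.08 ± 0.27 also missed the threshold (adjusted p = 0.0522, edgeR) and passed in 10 of 20 alternative fits.

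A list of 33 Tfh genes was set beside these, of which 31 could be tested. This list and those below were chosen with earlier results of these data known. Their counts therefore describe the members and are not independent support. Of the 31 tested, 3 rose (Ascl2, Sostdc1 and Tox) and none fell, beside 0.0596% and 0.017% of all tested genes. At an unadjusted p below 0.05, 21 were higher and 2 lower, beside 4.34% and 3.86% of all genes. The median log2 fold change of the list was 1.18, against 0.00 for all genes, and 27 of the 31 were above 0. These counts include Cxcr5 and Pdcd1, which the gate fixed. Of the other 29 genes, 19 were higher and 2 lower at an unadjusted p below 0.05, 25 were above 0 and the median was 1.13.

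Among the 13 transcription factors of the list, Tox2, a relative of Tox, was at 135.6 and 210.5 RPKM in Tfh and at 16.0 and 40.5 RPKM in non-Tfh cells (2.51 ± 0.46, adjusted p = 0.132, edgeR). Tcf7 encodes TCF1, which acts before Bcl6 in Tfh differentiation, and was at 361.7 and 375.9 against 149 and 196.4 RPKM (0.998 ± 0.20, adjusted p = 0.148, edgeR). Nfatc1, an effector of calcium signalling from the T cell receptor, was at 149.3 and 141.5 against 69.2 and 75.2 RPKM. None of these 3 passed, and in each both Tfh libraries were above both non-Tfh libraries, as in 22.3% of all tested genes. Not all factors of the list were higher in Tfh cells: Irf4, needed for both Tfh and effector differentiation, was at 17.6 and 14.1 against 24.2 and 35.2 RPKM, and Lef1, a partner of TCF1, was at 54.3 and 53.6 against 62.4 and 45.8 RPKM.

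Of the 8 surface receptors besides Cxcr5 and Pdcd1, none passed. At an unadjusted p below 0.05, 5 were higher and 1 lower, beside 4.34% and 3.86% of all tested genes. DESeq2 called 3 higher and 1 lower, beside 2.1% and 1.42% of all tested genes. Izumo1r, listed under its older symbol Folr4 and encoding folate receptor 4, was at 471.2 and 441.7 RPKM in Tfh and at 151.3 and 164.5 RPKM in non-Tfh cells. Il6ra and Il6st encode the chains of the receptor for interleukin 6, an early inducer of Tfh cells; Il6ra was at 55.9 and 59.95 against 27.8 and 22.0 RPKM. Icos, a costimulator that Tfh cells need, had the opposite order, at 172.5 and 195.5 against 264.7 and 255.3 RPKM (-0.59 ± 0.18, adjusted p = 0.431, edgeR).

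The helper cytokines differed most in Il4, which drives class switching in B cells. It was at 71.8 and 81.2 RPKM in Tfh cells and at 3.23 and 1.98 RPKM in non-Tfh cells, a log2 fold change of 4.79 ± 0.64 that missed the threshold (adjusted p = 0.0522, edgeR). Il21, the main Tfh cytokine for germinal centre B cells, was at 59.0 and 33.3 against 3.09 and 9.19 RPKM (2.81 ± 0.64, adjusted p = 0.204, edgeR). Cd40lg, which encodes CD40 ligand, was high on both sides, at 248.3 and 317 against 197.3 and 189.8 RPKM. Sh2d1a encodes SAP, the adaptor that Tfh cells need for lasting contact with B cells, and was at 270 and 194.3 against 63.1 and 53.6 RPKM (1.90 ± 0.28, adjusted p = 0.0759, edgeR).

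The Th1 and cytotoxic list was the counterpart, with 36 of its 37 genes tested. None passed in either direction in edgeR or limma, and DESeq2 called 6 lower, beside 1.42% of all tested genes. At an unadjusted p below 0.05, 1 was higher and 11 lower in Tfh cells, beside 4.34% and 3.86% of all tested genes. Of the 36, 30 were below 0, with a median log2 fold change of -0.94. Tbx21 was at 105.9 and 53.0 RPKM in Tfh cells and at 182.6 and 163.4 RPKM in non-Tfh cells (-1.21 ± 0.32, adjusted p = 0.339, edgeR). The 2 Tfh libraries differed from each other in Tbx21, and both lay below the non-Tfh libraries. Ifng was at 87.2 and 91.3 RPKM in Tfh cells against 240.3 and 296.2 RPKM in non-Tfh cells. The log2 fold change of -1.68 ± 0.79 did not pass (adjusted p = 0.657, edgeR).

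Bhlhe40, a factor that sustains cytokine production, had the smallest unadjusted p of the Th1 list, at 420.3 and 419.1 RPKM in Tfh against 767.6 and 626.8 RPKM in non-Tfh cells (-0.82 ± 0.16, adjusted p = 0.135, edgeR). Id2, which holds back E proteins and favours effector fates, was at 234.9 and 218.1 against 431.8 and 396.1 RPKM. Cxcr6, a receptor of tissue-homing Th1 cells, was at 243.6 and 281 against 535.6 and 454.7 RPKM. Tnf, a proinflammatory cytokine gene, was at 170.2 and 161.2 against 262.8 and 344.2 RPKM. In each of these 4 genes both Tfh libraries were below both non-Tfh libraries, as in 17% of all tested genes, and no library was below 161.2 RPKM. Not all members were lower: 3 of the 9 tested transcription factors of the list and 3 of its 10 cytokine or chemokine genes were above 0. The 1 member that was higher at an unadjusted p below 0.05 was Stat4, which relays interleukin 12 signals. It was at 39.2 and 55.0 RPKM in Tfh and 26.1 and 28.7 RPKM in non-Tfh cells.

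The 7 genes of granule proteins had log2 fold changes below 0. None passed, and 2 were lower at an unadjusted p below 0.05, beside 3.86% of all tested genes. DESeq2 called 1 lower, beside 1.42% of all tested genes. Nkg7, a granule membrane protein of cytotoxic cells, was at 317.2 and 268.7 against 529.1 and 485.8 RPKM. Prf1, which encodes perforin, was at 0.0897 and 0.0417 RPKM in Tfh and at 28.8 and 6.77 RPKM in non-Tfh cells, and Gzmb, encoding granzyme B, was at 0.104 and 7.41 against 29.2 and 49.8 RPKM. Perforin was thus near 0 in both Tfh libraries while its 2 non-Tfh libraries differed from each other.

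**Figure D2:**
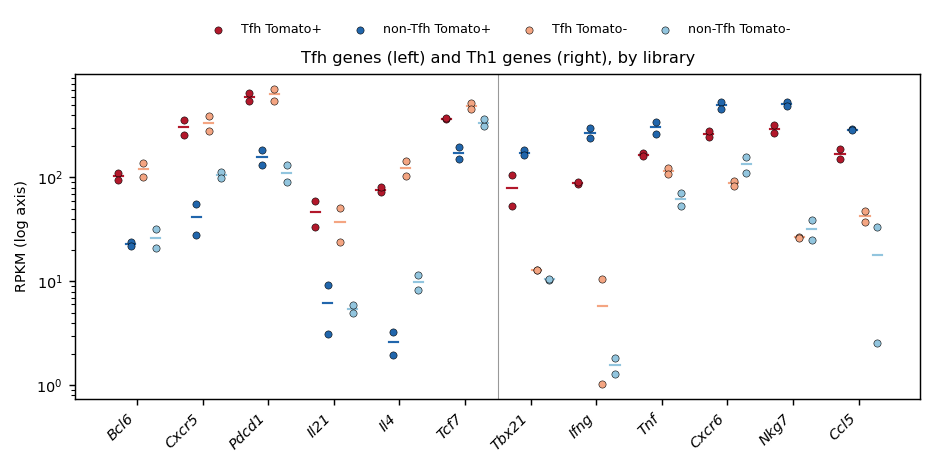
Level in RPKM (log axis) of 6 Tfh genes (left of the line) and 6 Th1 genes (right) in each of the 8 lymph node libraries; short lines are means of 2 libraries. Tomato+ Tfh cells (dark red) lie above Tomato+ non-Tfh cells (dark blue) for these 6 Tfh genes and below them for these 6 Th1 genes. For Tbx21, Ifng and Nkg7 all dark points lie above all pale (Tomato-) points. The drawn genes were picked from the lists, and Cxcr5 and Pdcd1 were set by the gate. Among all tested members, 4 of 31 Tfh genes were below 0 in log2 fold change and 6 of 36 Th1 genes above 0.

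Genes of effector migration and adhesion lay almost all on the lower side. All 29 could be tested, 2 fell (Itgb7 and Selplg) and none rose, beside 0.017% of all tested genes that fell. At an unadjusted p below 0.05, 20 were lower, beside 3.86% of all tested genes. The log2 fold change was below 0 in 28, beside 5860 of 11746 tested genes, and the median was -1.01. Vim, an intermediate filament gene, was at 154.6 and 133.8 RPKM in Tfh and at 376.5 and 489.6 RPKM in non-Tfh cells (-1.68 ± 0.24, adjusted p = 0.0759, edgeR). Capg, which caps actin filaments, was at 138.7 and 173.2 against 398.2 and 389.2 RPKM (-1.43 ± 0.25, adjusted p = 0.101, edgeR). Lgals1, encoding galectin 1, and the calcium-binding genes S100a4, S100a6 and S100a10 had log2 fold changes of -0.95, -1.15, -1.18 and -1.09. The 1 member above 0 was Itgal, the alpha chain of LFA-1, at 130.5 and 178.6 against 110.9 and 135.5 RPKM. The chemokine receptor gene Ccr6 was at 8.68 and 10.1 against 61.4 and 23.8 RPKM, with non-Tfh replicate 1 the highest.

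**Figure D3:**
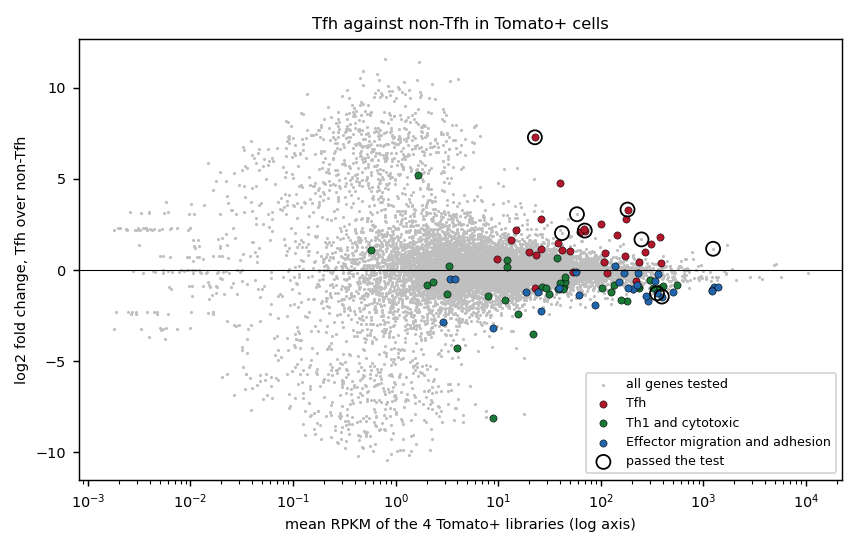
Log2 fold change of Tfh over non-Tfh in Tomato+ cells against the mean RPKM of the 4 libraries (log axis) for all tested genes (grey), with Tfh, Th1 and migration genes coloured and the 9 genes that passed circled. Most Tfh genes lie above 0 and 28 of 29 migration genes below it, and the widest scatter is among genes near or under 1 RPKM.

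Genes of naive and recirculating cells were also mostly below 0. Of 16 tested, none passed, and the median was -0.71. At an unadjusted p below 0.05, 1 was higher and 8 lower, beside 4.34% and 3.86% of all tested genes. DESeq2 called 1 of them higher and 6 lower, beside 2.1% and 1.42% of all tested genes, and limma none. S1pr1, the receptor that lets T cells leave the node, was at 69.1 and 65.5 RPKM in Tfh and 150.2 and 120.9 RPKM in non-Tfh cells (-1.10 ± 0.18, adjusted p = 0.0886, edgeR). Ccr7, the receptor that keeps T cells in the T cell zone, was at 137.2 and 180.4 against 234.3 and 302.2 RPKM. The member above 0 at that p was Cd27, a costimulatory receptor, at 205.5 and 192.2 against 98.8 and 74.5 RPKM.

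The interleukin 2 and common gamma chain list had a like profile, with no call in edgeR or limma and a median of -0.55. At an unadjusted p below 0.05, 1 of 16 was higher and 7 were lower, beside 4.34% and 3.86% of all tested genes. DESeq2 called 4 lower, beside 1.42% of all tested genes, and edgeR with no filter on low counts 2 lower. Interleukin 2 acting through STAT5 is known to oppose Tfh differentiation. Cish, a feedback inhibitor induced by STAT5, was at 50.3 and 66.7 RPKM in Tfh and at 199.9 and 190.4 RPKM in non-Tfh cells (-1.83 ± 0.29, adjusted p = 0.0876, edgeR). Il7r, the interleukin 7 receptor alpha chain, was at 20.3 and 38.6 against 111.4 and 111.6 RPKM (-2.02 ± 0.42, adjusted p = 0.18, edgeR). Mcl1, a survival factor of the BCL2 family, was at 15.3 and 15.5 against 45.5 and 42.4 RPKM. Il2rb, the receptor chain that interleukins 2 and 15 share, differed less, at 248.6 and 255.1 against 326 and 371.5 RPKM.

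A further pair of genes missed the threshold narrowly. Dennd2d, which belongs to a family of Rab activators, was at 264.7 and 224 RPKM in Tfh and at 79.9 and 87.3 RPKM in non-Tfh cells (1.46 ± 0.19, adjusted p = 0.0522, edgeR). Ifngr1, the ligand-binding chain of the interferon gamma receptor, was at 186.4 and 190.6 against 479.7 and 390.8 RPKM (-1.30 ± 0.17, adjusted p = 0.0522, edgeR). Other genes with small p on the lower side were Rasgrp2, which activates Rap1 for integrin adhesion (-2.04 ± 0.30), the membrane-binding gene Anxa6 (-1.57 ± 0.24), the MYC antagonist gene Mxd1 (-1.84 ± 0.30) and the actin-binding gene Lsp1 (-0.96 ± 0.16), none of which passed. In the list of 21 interferon gamma response genes, to which Ifngr1 belongs, none passed. At an unadjusted p below 0.05 none was higher and 3 were lower (Ifngr1, Irf1 and Tap1), beside 4.34% and 3.86% of all tested genes. DESeq2 called 2 of them lower, Ifngr1 and Irf1, beside 1.42% of all tested genes. With limma, 1 of the 21 was called lower on log2(RPKM + 1) and none on log2(RPKM + 0.1). In edgeR, 1 was called lower with a robust fit, with no filter on low counts and with a filter of 5 RPKM.

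The response genes of the T cell receptor split. Of 18, 1 rose (Fos), beside 0.0596% of all tested genes, and the median was -0.26. At an unadjusted p below 0.05, 5 were higher and 6 lower, beside 4.34% and 3.86% of all tested genes. DESeq2 called 2 higher (Fos and Dusp1) and 2 lower (Dusp2 and Nr4a1), beside 2.1% and 1.42% of all tested genes. Dusp1, a phosphatase that ends mitogen-activated kinase signals, was with Fos on the higher side, at 2801 and 2251 RPKM in Tfh and 897.3 and 905.3 RPKM in non-Tfh cells (1.40 ± 0.21, adjusted p = 0.0759, edgeR). Dusp2, a related phosphatase, was on the other side, at 168.7 and 248.5 against 483.2 and 692 RPKM (-1.59 ± 0.28, adjusted p = 0.101, edgeR). Nr4a1, a nuclear receptor gene that follows the strength of receptor signals, was at 1720 and 1833 against 2578 and 2249 RPKM. The AP-1 partner genes Jun and Junb were closer between groups than Fos, with log2 fold changes of 0.47 and 0.26.

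Of 10 inhibitory receptors besides the gated Pdcd1, none passed in edgeR or limma. At an unadjusted p below 0.05, 3 were higher and 1 lower, beside 4.34% and 3.86% of all tested genes. DESeq2 called 2 higher, Cd160 and Tigit, beside 2.1% of all tested genes. Cd160 was at 29.1 and 24.1 RPKM in Tfh against 6.70 and 2.996 RPKM in non-Tfh cells, and Tigit at 541.6 and 493.1 against 282.3 and 295.9 RPKM. Ctla4 was the 1 on the lower side, at 142.6 and 126.1 against 178.6 and 190.8 RPKM. In the SLAM family, whose receptors signal through SAP in contacts with B cells, none of 10 passed. At an unadjusted p below 0.05, 2 were higher and 2 lower, beside 4.34% and 3.86% of all tested genes. DESeq2 called these 4, Sh2d1a and Fyn higher and Cd48 and Slamf1 lower, beside 2.1% and 1.42% of all tested genes. In limma Sh2d1a was called. The receptor gene Slamf1 was at 32.0 and 29.9 against 75.2 and 69.6 RPKM, opposite in direction to Sh2d1a. Among 12 costimulatory genes 2 were higher and 3 lower at an unadjusted p below 0.05, beside 4.34% and 3.86% of all tested genes. DESeq2 called Cd27 higher and Icos lower, beside 2.1% and 1.42% of all tested genes. Tnfrsf4, encoding OX40, was at 216.2 and 181.7 against 303.2 and 281.4 RPKM.

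Lineage genes of other helper fates did not pass in edgeR either. Of all tested genes, 4.34% were higher and 3.86% lower at an unadjusted p below 0.05. DESeq2 called 2.1% of all tested genes higher and 1.42% lower. These shares stand beside each count that follows here. Of 13 regulatory T cell genes, 2 were higher and 5 lower at an unadjusted p below 0.05, 4 were above 0, and DESeq2 called Il10 and Foxp3 lower. Il10, an anti-inflammatory cytokine gene, was at 0.113 and 0.197 RPKM in Tfh cells and at 48.6 and 22.5 RPKM in non-Tfh cells, with an adjusted p of 0.202 in edgeR. The regulatory T cell factor Foxp3 was at 7.18 and 1.35 against 22.3 and 23.1 RPKM. Both were lower in both Tfh libraries, and Il10 was near 0 there. The members on the higher side at that p were Ikzf2, which encodes the factor Helios, at 9.31 and 12.2 against 3.21 and 3.81 RPKM, and Nt5e, which encodes CD73, at 45.1 and 57.4 against 29.2 and 24.6 RPKM. Of 6 tested Th2 genes, Il4 was higher and the chemokine receptor genes Ccr3 and Ccr4 were lower at an unadjusted p below 0.05, and 4 of the 6 were below 0. Ccr4 was at 5.30 and 5.87 against 9.64 and 19.2 RPKM, and Ccr3 at 0.0113 and 0.0131 against 2.55 and 2.21 RPKM. DESeq2 called Il4 higher and Ccr3 lower, and limma called Il4. Gata3, the factor of Th2 cells, was at 95.1 and 75.6 against 80.3 and 80.6 RPKM. Of 9 Th17 genes, 2 were higher and 1 lower at that p, and DESeq2 called Ccr6 lower. Il17f, a Th17 cytokine gene, was at 17.03 and 47.1 against 11.8 and 7.74 RPKM, and the 2 Tfh libraries differed from each other more than the non-Tfh libraries did.

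Of 30 cell cycle genes none passed in edgeR, DESeq2 or limma. At an unadjusted p below 0.05, 1 was higher, close to the 4.34% of all tested genes, so this count does not set the list apart. That member, Mcm6, a subunit of the replication helicase, was at 92.6 and 86.7 against 55.2 and 50.6 RPKM. Of 20 type I interferon response genes none passed and 2 were lower at that p, beside 3.86% of all tested genes. DESeq2 called Irf7 lower, beside 1.42% of all tested genes. The 2 lower genes were Irf7 at 58.5 and 65.5 against 185.7 and 152.3 RPKM and Bst2 at 42.0 and 70.3 against 105 and 119.6 RPKM. In 16 glycolysis genes the largest difference at that p was in Pfkl, a phosphofructokinase subunit, at 51.8 and 33.7 against 23.0 and 20.7 RPKM, while Ldha, lactate dehydrogenase A, was at 431.4 and 444.7 against 557.4 and 601.5 RPKM and was called lower by DESeq2. The medians of these 3 lists were 0.28, -0.28 and 0.22.

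**Figure D4:**
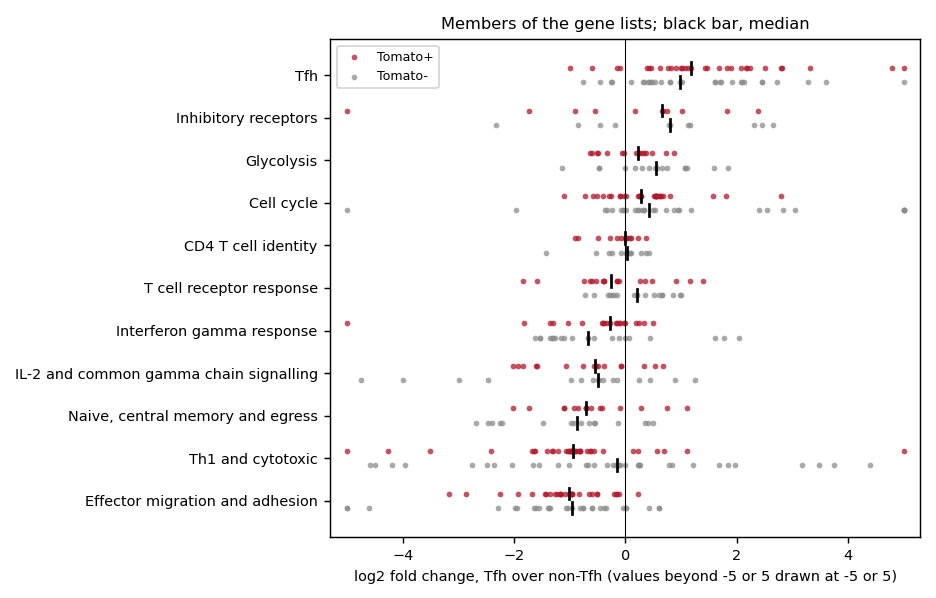
Log2 fold change of Tfh over non-Tfh for each tested member of 11 gene lists, in Tomato+ cells (red) and in Tomato- cells (grey), with black bars at the medians. In Tomato+ cells the Tfh list has a median of 1.18 (1.13 without Cxcr5 and Pdcd1), the migration list -1.01 and the Th1 list -0.94, while CD4 T cell identity genes are centred at -0.01.

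Markers of other cells were measured in the same libraries. The summed level of 13 CD4 T cell identity genes was 5336 and 4816 RPKM in Tfh and 5130 and 4370 RPKM in non-Tfh cells. The summed level of 15 macrophage and monocyte markers was 634 and 479.6 RPKM in Tfh cells and 299.5 and 242 RPKM in non-Tfh cells, so it moved with the comparison. None of the 15 passed in edgeR or limma. At an unadjusted p below 0.05, 4 were higher in Tfh cells (Lyz2, Apoe, Cybb and Mpeg1), beside 4.34% of all tested genes. DESeq2 called these 4 higher (adjusted p = 1.9e-05, 0.000119, 0.00529 and 0.0178), beside 2.1% of all tested genes. With no filter on low counts edgeR called 1 of the 15. Mpeg1, a pore-forming protein of macrophages, rested on 1 library, at 0.0255 and 2.88 RPKM in Tfh and 0.0396 and 0.0430 RPKM in non-Tfh cells. Lyz2, which encodes lysozyme, was at 243.8 and 199.2 against 105 and 63.9 RPKM, and Apoe, a lipid carrier gene, at 177.3 and 96.0 against 42.7 and 32.5 RPKM. Their part in the differences between Tfh and non-Tfh cells was not tested. No macrophage marker was at 0 in all 4 libraries, and the complement gene C1qa was between 9.92 and 13.3 RPKM in each.

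The 12 B cell markers summed to 149.9 and 120.6 RPKM in Tfh and to 157.6 and 137.6 RPKM in non-Tfh cells, and Cd79a, a chain of the B cell receptor complex, was at 35.2 and 29.2 against 50.3 and 28.4 RPKM. Cd22 was the 1 B cell marker that was higher in Tfh cells at an unadjusted p below 0.05, beside 4.34% of all tested genes. It was at 36.7 and 24.1 against 4.80 and 11.4 RPKM. DESeq2 called it higher (adjusted p = 0.0298), beside 2.1% of all tested genes. Neutrophil markers summed to 1.31 and 4.25 RPKM in Tfh cells and to 87.7 and 0.764 RPKM in non-Tfh cells, and Elane and Mpo had no reads in any of the 4. The high value was non-Tfh replicate 1, where S100a8 was at 68.3 RPKM. The fits that left out 1 library took the replicate from a group, so they cannot show the part of this library in the calls. Markers of NK and innate-like T cells summed to 187.6 and 201.1 against 281.1 and 288.7 RPKM, and MHC class II genes to 1229 and 832.9 against 956.4 and 740.4 RPKM. The part of these markers in the results was not tested.

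**Figure D5:**
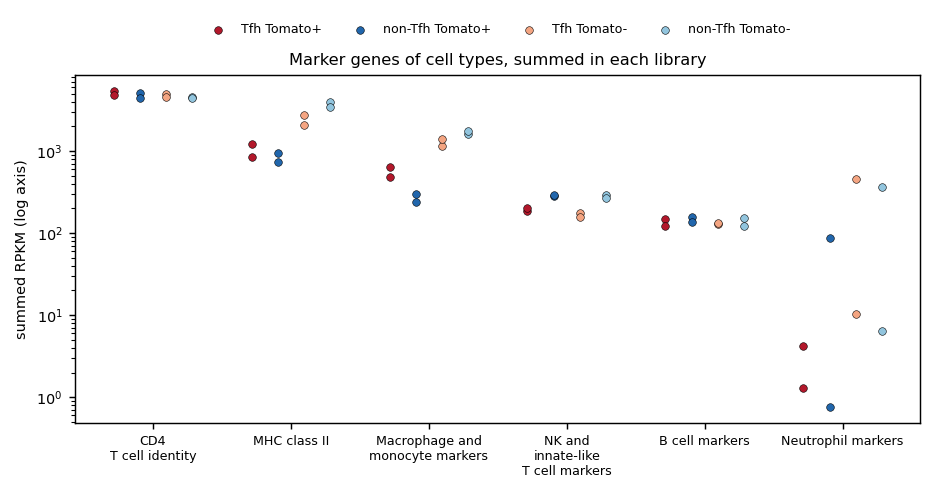
Summed RPKM (log axis) of marker genes of 6 cell types in each lymph node library. Among Tomato+ libraries, macrophage markers were at 479.6 to 634 RPKM in Tfh cells and 242 to 299.5 RPKM in non-Tfh cells, and 1 of the 2 non-Tfh libraries had neutrophil markers at 87.7 RPKM.

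The same comparison among Tomato- cells shares no library with the one above, although both come from one fit. There 10 genes (0.0851%) were higher in Tfh cells and 11 (0.0936%) lower, and 4 of the 9 genes above were among them, Ascl2, Sostdc1, Tox and Selplg. All 9 had the same direction in Tomato- cells, with log2 fold changes of 6.90 for Ascl2, 2.09 for Sostdc1, 1.998 for Fam43a, 1.91 for Tox, 1.15 for Smtn, 0.87 for Rgs10, 0.65 for Fos, -1.64 for Selplg and -1.06 for Itgb7. For Bcl6 the log2 fold changes were 2.08 in Tomato+ and 2.14 in Tomato- cells, and for Pdcd1 1.83 and 2.46.

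The test of the difference between the Tomato+ and Tomato- comparisons, an interaction term in the same edgeR fit, passed for 0 of 11746 genes (0%), with 747 at an unadjusted p below 0.05 and a lowest adjusted p of 0.677. DESeq2 called 148 genes and limma 0. By this test no gene can be called particular to Tomato+ cells, and values of both comparisons are given side by side. The median of the Th1 list was -0.94 in Tomato+ and -0.15 in Tomato- cells, where Tbx21 was at 12.8 and 12.9 RPKM in Tfh and 10.4 and 10.5 RPKM in non-Tfh cells. Tnf was lower in Tfh among Tomato+ cells and at 122.4 and 108.3 against 53.6 and 71.2 RPKM among Tomato- cells (interaction -1.80 on the log2 scale, adjusted p = 0.774, edgeR). Slamf1 had the same pattern, at 23.6 and 30.3 against 18.2 and 15.3 RPKM among Tomato- cells (interaction -1.95, adjusted p = 0.774, edgeR). Lyz2 had the opposite pattern, at 666 and 826.8 against 948.1 and 898 RPKM among Tomato- cells (interaction 1.66, adjusted p = 0.774, edgeR). Apoe had it more strongly, at 152.7 and 118.8 against 254.7 and 351.2 RPKM among Tomato- cells (interaction 2.99, adjusted p = 0.677, edgeR). The 15 macrophage markers had a median log2 fold change of 0.94 in Tomato+ and -0.47 in Tomato- cells. S1pr1 was lower in Tfh cells in both, with log2 fold changes of -1.10 in Tomato+ and -2.67 in Tomato- cells (interaction 1.58, adjusted p = 0.677, edgeR).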

How the data were processed

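Per the labels' protocols, polyadenylated RNA was selected and sequenced. The deposited tables give for each of 29257 transcript rows a whole-number read count and the RPKM the authors made from it (count divided by transcript length and library size). The submitters' processing notes list Bowtie2, edgeR, CASAVA 2.18 and SICER 1.1, and build mm9. The role of each tool and any use of strand are not given in the sources used here. That counting may share or split reads between paralogs or between overlapping genes.

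For each of 22878 symbols the row with the most reads over the 8 lymph node libraries was kept. Groups were taken from the sample titles. Counts were tested with edgeR 4.0.16 in R 4.3.3 (TMM, filterByExpr, quasi-likelihood F test, 1 mean per group, Benjamini-Hochberg adjusted p below 0.05 over all 11746 tested genes). The same fit was run on simulated counts, and its recovery of changes at the spread of these libraries is not reported here. The SE is the absolute log2 fold change divided by the square root of F; for genes near 0 reads it does not cover the prior count. Alternatives were DESeq2 1.42.0, limma 3.58.1 on log2(RPKM + 1) or log2(RPKM + 0.1) for genes of at least 1 RPKM in 2 libraries, other scaling, filters and row choice, a replicate block, and fits without each library. Named genes were Bcl6, Cxcr5, Pdcd1, Tbx21 and Ifng; called genes whose groups do not overlap with a higher mean of at least 5 RPKM; the smallest unadjusted p to 10 in each direction; and called members, up to 4 of smallest p, and defining markers of 28 gene lists. Other list members are named for their role, with their values known, and some genes the rule names are not reported here. The members and lists were chosen with earlier results of these data known. Promoters came from RefSeq tables on GRCm38.p6, and no mm9 gene position was used.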

Additional observations from a re-analysis of the deposited data

How the results depend on the processing

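The count of 9 changed genes was 414 with DESeq2 (247 higher, 167 lower), 29 and 23 with limma at a pseudocount of 1 and 0.1, 50 with no filter on low counts and 18 with a filter of 5 RPKM; all 9 genes were called in each of these. It was 12 with median-of-ratios factors and with a robust fit, and 9 with the other choice of row. Fitting only the 4 compared libraries gave 0, leaving out both Tomato- libraries numbered 2 gave 0, and the count ranged from 0 to 12 over the fits that left out 1 of the 8 libraries (0 to 1 for the 4 compared). Across genes, same-numbered libraries did not deviate together (correlations of deviations from -0.013 to 0.028). This does not settle whether the numbers mark a pairing or a shared batch, which could touch few genes. Neutrophil markers summed to 10.21 and 6.356 RPKM in the Tomato- libraries numbered 1 and to 450 and 366.1 RPKM in those numbered 2. The non-Tfh Tomato+ libraries had the opposite order (87.7 and 0.764 RPKM). With a replicate block the count was 1 over 8 libraries and 0 over 4. The count of genes whose difference differed between Tomato+ and Tomato- cells was 0, 148 with DESeq2 (85 higher, 63 lower) and 0 in every other fit. Direction was kept by the named genes over their alternatives apart from 7 genes. Gata3, at -0.00 as reported, was 0.02 with the 4 libraries alone and with the filter of 5 RPKM, 0.01 with DESeq2, median-of-ratios factors, the other row choice and the replicate block of 4 libraries, 0.08 with both limma fits, and from -0.20 to 0.16 without single libraries. Lef1 was 0.01 with both limma fits. Without single libraries the ranges were -0.27 to 0.13 for Lef1 (highest without non-Tfh replicate 1), -0.04 to 0.11 for Cd4, -0.70 to 0.08 for Cd79a (highest without non-Tfh replicate 1), -1.12 to 0.62 for Itga4 (highest without non-Tfh replicate 2), -0.75 to 5.98 for Mpeg1 (lowest without Tfh replicate 2) and -5.83 to 0.78 for S100a8 (highest without non-Tfh replicate 1). Over 20 alternatives the Tfh list had a median of 1.09 to 1.43, with 17 to 22 members higher at an unadjusted p below 0.05. The migration list had a median of -1.10 to -0.91 with 15 to 22 members lower, and the Th1 list a median of -1.0 to -0.84 with 5 to 19 members lower. Without Cxcr5 and Pdcd1, a choice made after the data were seen, the Tfh median was 1.03 to 1.30 with 15 to 20 members higher. DESeq2 called 16 Tfh genes higher and 1 lower (14 and 1 without those 2), 14 migration genes lower and 6 Th1 genes lower, beside 2.1% of all genes higher and 1.42% lower. For Ascl2, Il10 and Prf1, with few reads in 1 group, the size of the fold change rests on those few reads.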

Other observations

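A few Tfh-associated genes outside the accounts above had the same order in both libraries of each group, an order that 22.3% of all tested genes had in this direction, without passing in edgeR. Angptl2, which encodes a secreted angiopoietin-like protein, was at 113.2 and 113.9 RPKM in Tomato+ Tfh cells and at 16.2 and 28.9 RPKM in non-Tfh cells (2.23 ± 0.37, adjusted p = 0.0886, edgeR). Rgs16, which shortens G protein signalling like Rgs10, was at 64.7 and 49.9 against 10.4 and 28.1 RPKM (1.47 ± 0.51, adjusted p = 0.525, edgeR). Fyn, the kinase that SAP recruits to SLAM receptors, was at 119.1 and 108.2 against 50.5 and 57.5 RPKM. These were chosen from the lists after their values were seen.

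Srebf2, the factor that induces cholesterol synthesis, was at 4.41 and 10.5 RPKM in Tfh cells and at 26.0 and 27.7 RPKM in non-Tfh cells and did not pass (-1.95 ± 0.43, adjusted p = 0.198, edgeR; 0.00343 with DESeq2). The cholesterol list of 21 tested genes had a median of -0.02.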
